A study of Mus musculus with 4 samples.

Results

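Calmodulin is the small calcium-binding protein through which calcium entering a dendritic spine reaches many kinases, phosphatases and scaffold proteins. The genes described here encode calmodulin (Calm2 and Calm3), IQ-motif proteins that hold calmodulin in its calcium-free form (Nrgn and Gap43), acidic, membrane-associated proteins of the MARCKS type that bind calmodulin through a basic effector region (Marcks, Marcksl1 and Basp1), neuronal calcium sensors built on the same EF-hand fold as calmodulin (Hpca and Ncald) and Nsmf, also called Jacob, a protein that travels from synapses to the nucleus. The sites were taken by gene name alone, and every polyA site that the table lists under one of the 10 names was taken. Of the 10 genes, 7 had at least 1 site, which gave 18 of the 9297 sites and 217 of the 34672 tags of the table. No site carried the name Gap43, Ncald or Nsmf.

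The data came from cTag-PAPERCLIP of the CA1 neuropil, the layer of the hippocampus that holds the dendrites of CA1 pyramidal neurons together with axons and glia. In this assay poly(A)-binding protein Pabpc1 carries a GFP tag after Cre recombination, RNA is crosslinked to it by ultraviolet light, and each fragment recovered with it (a tag) stands for the 3′ end of an mRNA. All 4 libraries came from adult C57BL/6 mice with the genotype Camk2a-Cre x Pabpc1- cTag, in which the promoter of Camk2a drives Cre in excitatory neurons, and several mice were pooled for each replicate. There was no other condition and no untagged control among the samples analysed here, so every comparison below is between genes, between sites or between replicates. Whether a gene has few tags because few cells contribute it or because each cell holds little of its RNA cannot be told apart in such pooled tissue.

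Depth limits what can be read. The replicates held 16017, 6609, 5947 and 6099 tags, with a median of 2 tags per gene name over all replicates. Shares below are percentages of a replicate's tags, and a gene with 0 tags could still have a share of up to 0.0187%, 0.0454%, 0.0504% and 0.0492% in replicates 1 to 4 (3 tags of the total). Sites that resemble the short noncoding RNA Bc1 took 32.9%, 11.8%, 2.59% and 2.07% of the tags of replicates 1 to 4, so replicates 1 and 2 stand apart from the others. Tags summed over 10 pyramidal neuron markers (Neurod6 among them) came to 0.222% ± 0.0320 (SD, n = 4), with 8 of the 10 genes present, and Slc17a7 and Spink8 without a tag under their names (by the GENCODE vM21 gene at the site, Spink8 alone had none). Astrocyte markers (Gfap and 9 others) came to 0.313% ± 0.117 with 10 of 10 present, oligodendrocyte markers (Mbp and 6 others) to 0.291% ± 0.191 with 7 of 7 present, and blood markers ranged from 0.0250% to 1.31% between replicates. Interneuron markers had 33 tags by name and 18 by vM21 gene, and microglia markers 2 and 5. The part that RNA of these other cells has in the values below was not tested.

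Sequences around the listed positions show whether a polyA signal or a run of A lies close to a site. Each line gives 30 bases of the GRCm38 (mm10) genome on the strand of the gene, 5′ to 3′, from 9 bases upstream to 20 bases downstream of the listed position. Capitals mark the polyA signals AATAAA and ATTAAA, the words that direct cleavage of a pre-mRNA at its 3′ end.
Calm2, chr17:87433418-87433447, minus strand: tttgttttccAATAAAaaaaattacaattt
Calm3, chr7:16915381-16915410, minus strand: tcaatgttttccAATAAAatacagtgacta
Nrgn, distal, chr9:37544495-37544524, minus strand: aatgtgaatAATAAAgaggaatgtctaagt
Nrgn, proximal, chr9:37544936-37544965, minus strand: caaatactctcaaaaaaagaaagaaaaaaa
Basp1, distal 3′UTR site, chr15:25363274-25363303, minus strand: gtAATAAAgttaaacaATTAAAaagtagta
Basp1, far site, chr15:24857793-24857822, minus strand: aaacctaacttgcgcagaaaaaaaaaaaaa
Hpca, chr4:129111574-129111603, minus strand: acttcaaAATAAAgtcttgtttcagtgcat
Nsmf, chr2:25062850-25062879, plus strand: agagtgaccATTAAActtgaccctctgctg
These lines were chosen because they carry most tags of the members (Calm2, Calm3, Nrgn, Hpca), because they differ between replicates (Basp1) or because the site carries another gene's name in the table (Nsmf). In the Calm2, Calm3, Hpca, Nsmf and distal Nrgn sequences a signal overlaps or lies just beyond the listed position. The proximal Nrgn line and the far Basp1 line hold no signal and run into A.

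Signals and A content were counted over the 18 sites. AATAAA or ATTAAA occurred within 50 bases on either side at 15 of 18 sites (83.3%, 95% Wilson interval 60.8 to 94.2), against 78.1% of all sites on chromosomes. The 3 sites without a signal were the proximal sites of Calm3 and Nrgn and the far site of Basp1. At least 20 of the next 30 bases were A at 5 of 18 sites, against 8.84% of all sites, a threshold chosen after the values were seen. These 5 were the proximal Nrgn site with 25 A, the far Basp1 site with 22 A and the Basp1 3′UTR sites at 835, 729 and 151 bases with 22, 23 and 23 A. The last 3 of these have a signal, and the proximal Calm3 site, which has none, is followed by 10 A. The median over all sites was 11 A. Together the 5 sites held 22, 6, 7 and 2 of the members' 101, 38, 27 and 51 tags in replicates 1 to 4. That was 21.8%, 15.8%, 25.9% and 3.92% of the members' tags, against 4.66%, 5.73%, 7.50% and 4.87% of all tags, so the members were higher in replicates 1 to 3 and lower in replicate 4. A genomic run of A is a place where an oligo(dT) primer can anneal without a poly(A) tail, and its part in these tags was not tested.

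**Figure D1:**
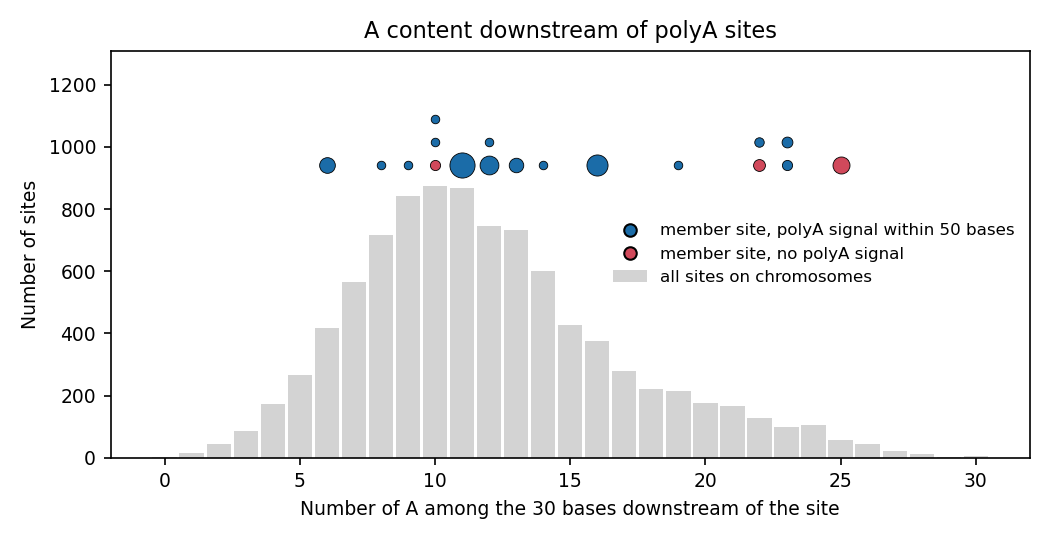
Number of A among the 30 bases downstream of each site, with grey bars for all 9294 sites on chromosomes. Circles are the 18 member sites, stacked above the bars without a vertical scale, larger with more tags, blue with a polyA signal within 50 bases and red without. The main sites of Calm3, Nrgn and Calm2 lie at 11, 12 and 16 A, and 5 member sites lie at 22 A or more.

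The 18 sites were spread over the members unevenly, with 5 for Basp1, 3 each for Nrgn and Marcks, 2 each for Calm2, Calm3 and Hpca and 1 for Marcksl1. Of these, 14 lay in the 3′UTR of the gene they are named for, and the share of all sites that do is not given here. A Calm2 site with 1 tag lay in an intron, at a Bc1-like sequence. The 3 others lay outside the annotated gene of their name, 8763 bases past the end of Nrgn, 41.3 kb past the end of Hpca and 505 kb past the end of Basp1. Tags in more than 1 replicate were found at 10 of 18 sites, against 34.2% of all sites. Of the 18 sites 7 had 1 tag in all, a count given without its share over all sites. At the gene level 5 of the 10 members (Calm2, Calm3, Nrgn, Basp1 and Hpca) had tags in every replicate, against 7.76% of gene names. Genes with more tags are seen in more replicates, and the part of tag number in both counts was not tested.

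**Figure D2:**
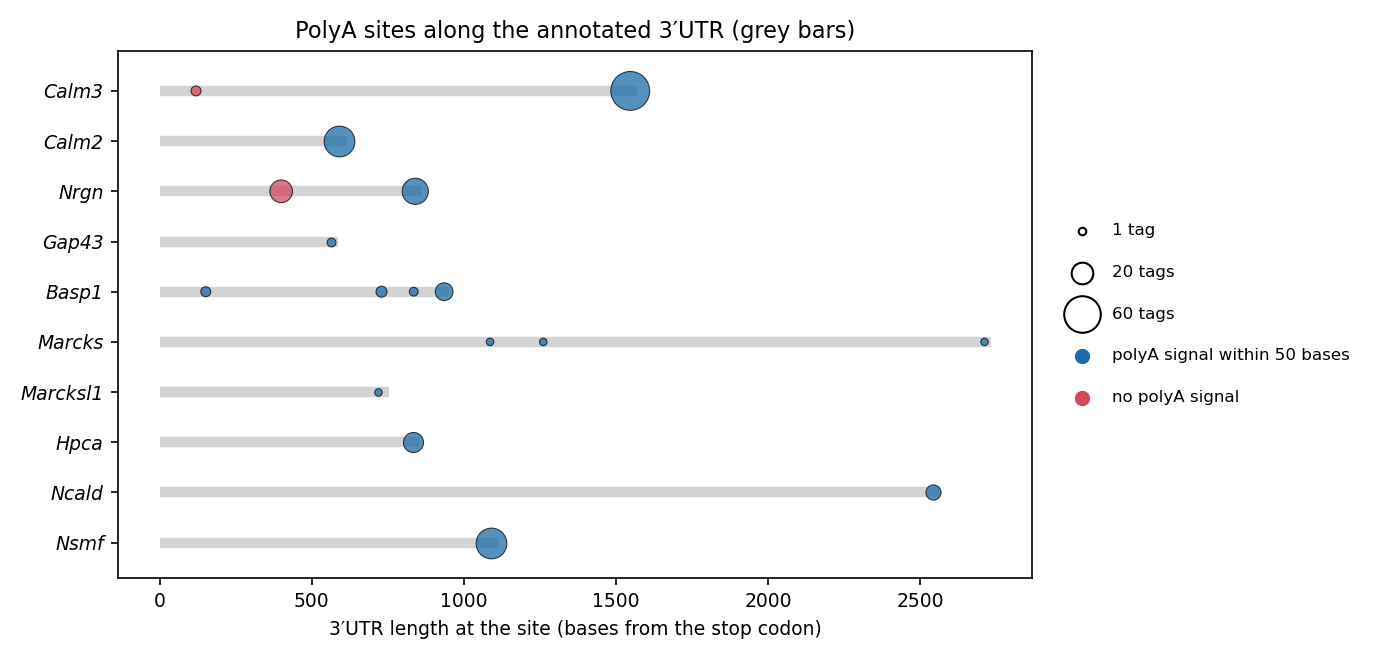
Listed polyA sites placed by the 3′UTR length they give, in bases from the stop codon, with the vM21 3′UTR as a grey bar for each gene. Circle area grows with the tags over 4 replicates, blue circles have a polyA signal within 50 bases and red circles have none. Sites that lie outside the 3′UTR are not drawn, and Gap43, Ncald and Nsmf are drawn at sites that the table names otherwise. The largest circle of Calm2, Calm3, Hpca, Ncald and Nsmf is at the end of the bar.

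Every one of the 10 genes had a site just before an annotated 3′ end once the vM21 gene at the position was used in place of the name. These 10 sites lay between 17 and 37 bases upstream of a vM21 transcript end, and 10 of 10 had a polyA signal. They carried 225 tags. The Marcks and Marcksl1 sites had 1 tag each, and the Gap43 site had 2 tags, in replicate 1 alone. No such counts over all genes or sites are given here, so nothing particular to the members is read from 10 of 10. The 3′UTR that each of the 10 sites implies ran from 563 bases for Gap43 and 589 for Calm2 to 2543 for Ncald and 2712 for Marcks. Long and short 3′UTRs were both among the genes with many tags, since the main site of Calm3 gives 1547 bases and that of Nrgn 840.

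The calmodulin genes held the most tags. Calm2 and Calm3 encode the same protein from different genes, and together they took 0.322% ± 0.0871 of tags (SD, n = 4), 114 tags in all. Calm3 had 39, 17, 3 and 12 tags in replicates 1 to 4, a share of 0.187% ± 0.0946, and ranked 41 of 7202 gene names. Replicates 1, 2 and 4 lay close together, between 0.197% and 0.257%, and replicate 3 lay below them at 0.0504% (95% Wilson interval 0.0172 to 0.148). Calm2 had 16, 5, 9 and 13 tags, a share of 0.135% ± 0.0609, and ranked 64. Its lowest share was in replicate 2 (0.0757%) and its highest in replicate 4 (0.213%).

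The balance of Calm2 to Calm3 went both ways between replicates. On the log2 scale, with 0.5 tags added to each, Calm2 over Calm3 was -1.26, -1.67, 1.44 and 0.11 in replicates 1 to 4. Calm3 was thus ahead in replicates 1 and 2 and Calm2 in replicates 3 and 4. The mean of -0.34 ± 1.41 was smaller than the spread (p = 0.75, exact sign-flip permutation test, two-sided, n = 4, where the smallest possible p is 0.13). Leaving out replicate 2 turned the sign, to 0.10. Over all tags pooled the ratio was 0.606 (95% exact interval 0.405 to 0.897), an interval that covers counting error and not the spread between replicates.

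Each of the 2 genes used a single 3′ end for nearly all of its tags. The Calm3 site with 1547 bases of 3′UTR had 37, 17, 3 and 11 tags, or 95.8% of the gene's tags. A second site 119 bases past the stop codon had 2, 0, 0 and 1. Calm2 had 16, 4, 9 and 13 tags at its 3′ end of 589 bases, or 97.7%. Site usage did not pass the test for either gene (adjusted p = 0.889 for Calm3 and 0.373 for Calm2, permutation test).

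**Figure D3:**
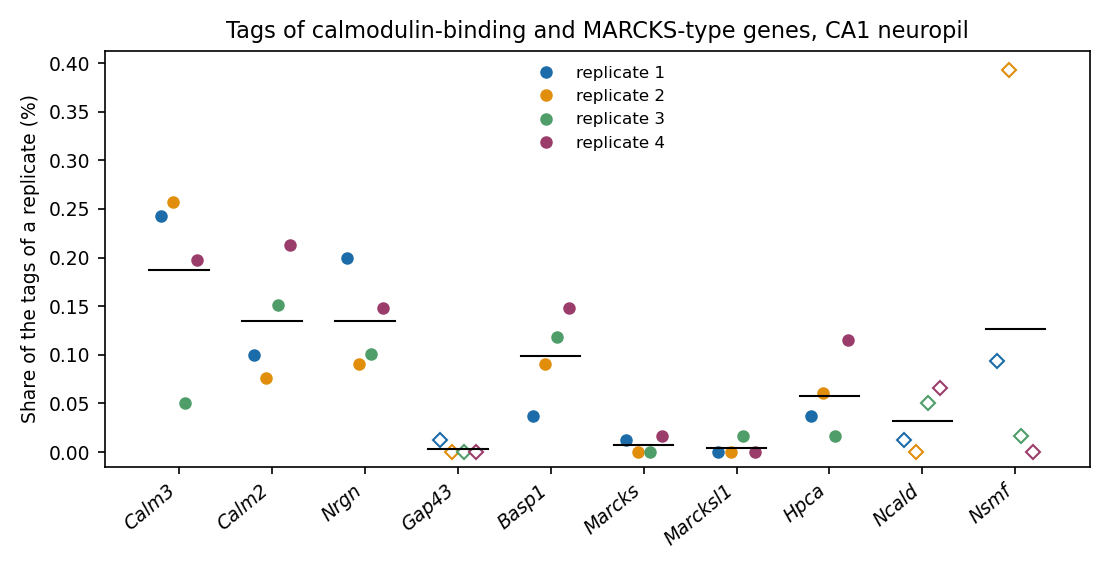
Share of the tags of each replicate (percent, vertical axis) for the 10 genes. Filled circles are shares by the gene name in the table, open diamonds are the sites of Gap43, Ncald and Nsmf by their vM21 gene, colours are replicates and black bars are means of 4. Calm3, Calm2, Nrgn and Basp1 overlap, and the Nsmf value of replicate 2 stands at 0.393%.

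Nrgn (neurogranin), a postsynaptic IQ-motif protein whose mRNA is a classic example of a dendritic message, came next. Its 32, 6, 6 and 9 tags gave 0.135% ± 0.0499 and rank 65, nearly the same mean as Calm2. Unlike the calmodulin members it had a pair of well-covered 3′UTR sites. The distal one, with 840 bases of 3′UTR, had 14, 3, 5 and 8 tags. The proximal one, with 399 bases, had 17, 3, 1 and 1. The proximal site thus made up 53.1% and 50% of Nrgn tags in replicates 1 and 2 and 16.7% and 11.1% in replicates 3 and 4. This difference did not pass the test across replicates (adjusted p = 0.707, permutation test). The proximal site is the one without a polyA signal and with 25 A downstream, and without such A-rich sites the Nrgn share was 0.0886% ± 0.0352. A site 8763 bases past the gene had 1 tag.

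Gap43 (neuromodulin), the other IQ-motif protein, is known from growing axons and presynaptic terminals. Its annotated 3′ end on chromosome 16 is listed under the name of a microRNA gene, Mir6540, with 2, 0, 0 and 0 tags. By these values Nrgn had 52 tags in its vM21 gene against 2, a ratio of 26.0 (95% exact interval 6.84 to 220, counting error only). Of these 52 tags, 30 lay at the distal Nrgn site and 22 at the A-rich proximal one. Nrgn was the higher in 4 of 4 replicates, which with 4 replicates gives p = 0.13 at best (exact sign-flip permutation test, adjusted p = 0.250 over the 4 pairs compared by vM21 name).

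**Figure D4:**
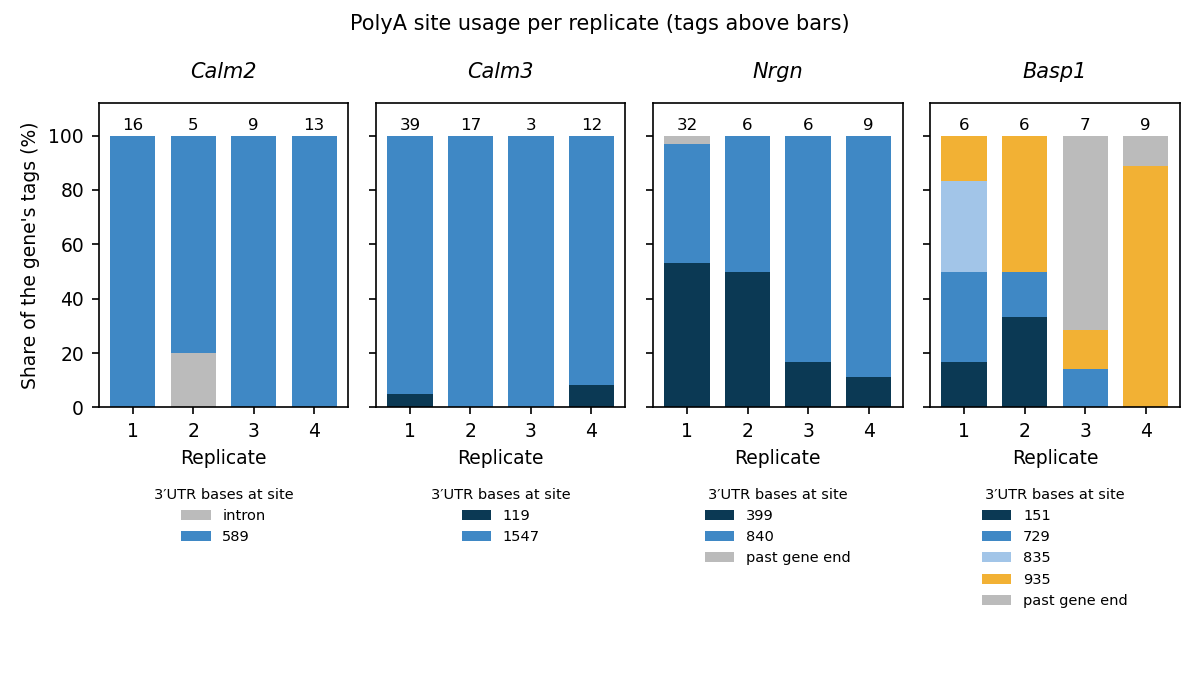
Share of a gene's tags (percent, vertical axis) at each of its sites in replicates 1 to 4, with the number of tags above each bar. Colours are sites, named by the 3′UTR length they give or, in grey, as intronic or past the gene end. Calm2 and Calm3 are almost of 1 colour, the proximal Nrgn site shrinks from 53.1% in replicate 1 to 11.1% in replicate 4, and the 5 Basp1 sites change from replicate to replicate.

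Among the MARCKS-type proteins nearly all tags were those of Basp1. The 3 genes together had 8, 6, 8 and 10 tags, a share of 0.110% ± 0.050, which was 0.0613% ± 0.0585 without A-rich sites. Basp1, a myristoylated, calmodulin-binding protein of the inner plasma membrane, had 6, 6, 7 and 9 of them (0.0984% ± 0.0468, rank 100), and its share was 0.0499% ± 0.0566 without A-rich sites. By name the Basp1 share was lowest in the deepest library, replicate 1, at 0.0375%, and highest in replicate 4, at 0.148%. By vM21 gene, which leaves out the far site, it was lowest in replicate 3, at 0.0336%. Marcks, the founding member of the group and a major substrate of protein kinase C, had 2, 0, 0 and 1 tags at 3 sites with 1 tag each. Marcksl1, its smaller relative, had 0, 0, 1 and 0. With 3 tags against 28, Basp1 over Marcks was 9.33 (95% exact interval 2.88 to 48.0, counting error only), and Basp1 was the higher in 4 of 4 replicates (p = 0.13, exact sign-flip permutation test, adjusted p = 0.250 over the 2 pairs compared by name). The 28 tags include the 6 of the far site, and by vM21 gene the ratio was 7.33 (95% exact interval 2.20 to 38.3). Without A-rich sites Basp1 keeps 13 tags, which are 1, 3, 1 and 8 in replicates 1 to 4, and Marcks is ahead in replicate 1. Marcks and Marcksl1 were both at or under 3 tags, so no ratio between them is given.

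Basp1 was the only member of 4 tested whose site usage differed between replicates (p = 0.000400, adjusted p = 0.00449, permutation test over all genes with at least 20 tags and more than 1 site). Of all genes tested, 15.8% were called. The distal 3′UTR site, 17 bases upstream of the annotated end, had 1, 3, 1 and 8 tags. The other 3′UTR sites, at 835, 729 and 151 bases, had between 2 and 4 tags each, and of these 9 tags 5 were in replicate 1, 3 in replicate 2, 1 in replicate 3 and 0 in replicate 4. The far site, 505 kb past the gene and inside an intron of the long noncoding RNA gene Gm35769, had 0, 0, 5 and 1. Replicate 4 therefore ended mostly at the annotated end, replicate 3 mostly at the far site, and replicate 1 over the A-rich internal sites. The call rests on few tags. It was lost when the far site was not counted as Basp1 (adjusted p = 0.281 with vM21 names, permutation test), without replicate 3, and when A-rich sites were left out, after which Basp1 had too few tags to be tested.

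By name the neuronal calcium sensors had fewer tags than the MARCKS-type proteins, 18 against 32, but by vM21 gene both groups had 26. Hpca (hippocalcin), a calcium-myristoyl switch protein abundant in hippocampal pyramidal neurons, had 6, 4, 1 and 7 (0.0574% ± 0.0422, rank 228). Its share was lowest in replicate 3, at 0.0168%, and highest in replicate 4, at 0.115%. All but 1 of its 18 tags lay at a 3′ end with 834 bases of 3′UTR, 18 bases upstream of an annotated end. Ncald (neurocalcin delta), a related sensor, has its 3′ end on chromosome 15 listed under Gm15941, with 2, 0, 3 and 4 tags (0.0321% ± 0.0309). With 17 Hpca tags in the vM21 gene, Hpca over Ncald was 1.89 (95% exact interval 0.796 to 4.81), an interval that holds 1, and Ncald was ahead in replicate 3.

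Nsmf tags were spread unevenly over the replicates. Its annotated 3′ end on chromosome 2, with 1090 bases of 3′UTR, is listed under the microRNA gene Mir7664 and had 15, 26, 1 and 0 tags. In shares that was 0.0937%, 0.393%, 0.0168% and 0%, so nearly all Nsmf tags came from replicates 1 and 2, the libraries with the most Bc1-like tags. The mean was 0.126% with an SD of 0.183, larger than the mean itself. Counted by vM21 name, its share differed between replicates (adjusted p = 0.000330, permutation test), as it did for 114 of 175 genes tested under vM21 names. The part of the Bc1-like tags or of any other feature of replicates 1 and 2 in this was not tested.

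A tag stands for a 3′ end, so shares were not scaled by transcript length. Put in order of mean share by name, the members ran Calm3, Calm2, Nrgn, Basp1, Hpca, Marcks and Marcksl1. Of the 6 neighbouring pairs, only Hpca over Marcks kept its direction in 4 of 4 replicates, with a difference of 0.0502% ± 0.0373 (p = 0.13, adjusted p = 0.75, exact sign-flip permutation test, two-sided). Calm2 and Nrgn differed by 0.000251% ± 0.0754 and neighbours higher up in the order were not separated by their spread. Nrgn stood above Basp1 in 1 of 4 replicates, replicate 1, and equalled it in replicates 2 and 4. Without replicate 1, Basp1 (0.119%) stood above Nrgn (0.113%). Calm3, Nrgn and Calm2 held 77.0% of the members' tags. The 10 genes together took 0.631%, 0.575%, 0.454% and 0.836% of tags in replicates 1 to 4, or 0.624% ± 0.160, and 0.754% ± 0.231 when sites were assigned by vM21 gene. With Bc1-like sites left out of the tags and totals the summed share was 0.723% ± 0.214, and Nrgn (0.164% ± 0.0920) stood ahead of Calm2 (0.148% ± 0.0611).

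**Figure D5:**
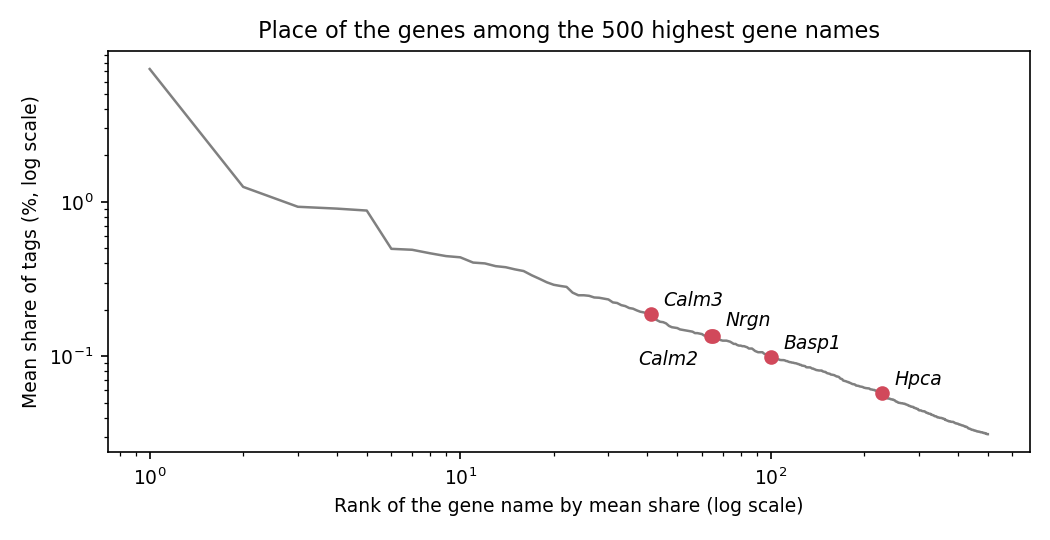
Mean share of tags (percent, log scale) against rank among gene names (log scale) for the 500 highest gene names, in grey. Red points are the 5 members with tags in every replicate. The members lie between rank 41 (Calm3) and rank 228 (Hpca).

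For most of the members with at least 20 tags no difference in share between replicates passed the test. The share differed in 1 of 4 members tested, Calm3 (p = 0.0274, adjusted p = 0.0404, permutation test), against 70.1% of the 211 gene names with at least 20 tags. Adjusted p was 0.0549 for Basp1, 0.114 for Calm2 and 0.196 for Nrgn. The chi-square per degree of freedom ran from 1.68 (Nrgn) to 3.0 (Calm3), with a median of 4.89 over all genes tested. Calls were more frequent among genes with more tags, with 218 of 533 at a minimum of 10 tags and 48 of 56 at a minimum of 50. The members tested had 28 (Basp1) to 71 (Calm3) tags, and the part of tag number in this comparison was not tested. The Calm3 call was lost without replicate 3, and with Bc1-like sites left out Nrgn was called beside Calm3.

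Distal and proximal ends were compared for members with several sites. Summed over the 6 genes with more than 1 site by name, the most distal site had 54, 21, 17 and 27 tags and the most proximal one 27, 10, 2 and 8. The log2 ratio was 0.99, 1.03, 2.81 and 1.69 in replicates 1 to 4, with a mean of 1.63 ± 0.85 (p = 0.13, exact sign-flip permutation test, the smallest possible with n = 4). Without replicate 2 the mean was 1.01, with Calm2 out of the sum because its second site has its tag there. Without A-rich sites the mean was 1.07, with Basp1 out of the sum and the 840-base end of Nrgn counted as proximal. Both means thus cover other genes or sites than 1.63 does. The sum over the 6 genes rests on Calm3 (68 distal tags, 3 proximal) and Calm2 (42 and 1). The proximal Calm2 site is the intronic Bc1-like one, with its tag in replicate 2. Nrgn went the other way by name, with 1 distal and 22 proximal tags, as did Hpca with 1 and 17. Basp1 had 6 and 3, and Marcks 1 and 1. For Nrgn, Basp1 and Hpca the most distal site by name lies outside the gene. By vM21 gene, where 5 genes have more than 1 site, the distal ends had 154 tags and the proximal ends 30 (83.7% distal), and the mean log2 ratio was 2.86 ± 1.16. Per gene and by vM21 name, the distal site held 97.7% of distal and proximal tags for Calm2, 95.8% for Calm3, 81.2% for Basp1, 57.7% for Nrgn and 50% for Marcks.

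Other genes of calcium and calmodulin signalling give the setting. Of 59 further genes, 45 had tags and 18 had them in every replicate (7.76% of all gene names did), and together they took 2.0% ± 0.244 of tags. At least 20 tags were found for 10 of them. These were Adcy1, a calmodulin-stimulated adenylyl cyclase, with 101 tags, Camk2n1, an inhibitor of CaM kinase II, with 85, Cabp7, an EF-hand calcium-binding protein, with 68, Prkcb, a protein kinase C, with 53, Ppp3ca, the catalytic subunit of calcineurin, with 49, Hpcal4, a relative of hippocalcin, with 44, Ncs1, a neuronal calcium sensor, with 39, Camk2b, a subunit of CaM kinase II, and Phactr1, a regulator of protein phosphatase 1, with 23 each, and Pcp4, a small IQ-motif protein, with 20. The share differed between replicates in 5 of these 10, against 70.1% of all genes tested, and site usage in 1 of 6 tested, Camk2n1, against 15.8%. By vM21 gene 3 genes of the list without a tag by name had tags. These were Ppp3r1, the regulatory subunit of calcineurin, with 54, Sptan1, a spectrin, with 9 and Add1, an adducin, with 2. Camk4 and Strn3 went the other way, from 3 and 2 tags by name to 0 by vM21 gene. All of these genes are named after their values were seen.

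Words known from the control of mRNA in the cytoplasm were searched upstream of the sites. In the 100 bases upstream, on the strand of the gene, TTTTAT (a cytoplasmic polyadenylation element) occurred at 1 of 18 member sites. This was the far Basp1 site, which lies outside the gene, and the word occurred at 15.0% of all sites. TTTTAAT, a variant of it that shares its first letters, occurred at 3 of 18, the main sites of Hpca and Marcksl1 and the distal site of Nrgn, and at 5.38% of all sites. TGTANATA, the word bound by Pumilio proteins, occurred at 1 of 18, Marcksl1, and at 5.51% of all sites. These are matches of letters and not sites of binding.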

How the data were processed

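Tags were counted per polyA site by the authors, who deposited whole-number counts for 4 CA1 neuropil libraries, with position, strand and gene name. According to the methods of the study, mapping was to the genome and sites were clusters of tags called with CTK. The submitters' processing notes name cutadapt, Novoalign and mm10, without versions. Whether duplicate tags were collapsed, and how tags that match several places were treated, is not given in the sources used here, so tags may not be independent molecules, and intervals and chi-square tests cover counting error only. The labels do not say whether the replicates share animals; the sign-flip p-values measure the spread between these libraries, which may be technical. Some libraries of little input shared a pool once each had its barcode. By its name, the table holds neuropil tags at polyA sites that overlap those of Camk2a-expressing cells.

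The members and gene lists were chosen with earlier results of these data known. Marker lists are given as sums, with a defining gene named for some and, for pyramidal neurons, the genes without a tag. Other named genes are the 10 members and, of 59 other calcium genes, those with at least 20 tags. Genes of the calcium list whose tags appear or vanish by vM21 gene are also named, after their values were seen. A further gene of that list is not reported here. Positions were read against GRCm38 and GENCODE vM21, and gene names were used as given unless stated; 0 of 9294 sites lay past a chromosome end and 7112 lay inside the vM21 gene of their name. Shares are percentages of the deposited count total, with 95% Wilson intervals. Differences between replicates were tested by a chi-square permutation test (10000 resamples) over all genes with at least 20 tags, with Benjamini-Hochberg adjustment and a threshold of 0.05, after a check on simulated data, and ratios by an exact sign-flip permutation test. A site was Bc1-like with at least 10 of the 63 words of 12 bases from the first 74 bases of Bc1 within 75 bases on either side. Alternatives were leaving out each replicate, other totals, sites, names, minima (10 and 50 tags), a pseudocount of 1 and sites within 50 bases merged. Leaving out Bc1-like sites and A-rich sites was added after seeing the data. Python 3.11.15, numpy 2.4.6, scipy 1.17.1, pandas 2.3.3 and pysam 0.24.0 were used.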

Additional observations from a re-analysis of the deposited data

Results flagged for a closer look

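The share of Marcksl1 was flagged because replicate 3 stood apart from the other replicates, with a gap of 1.00 of the whole range, which rests on 1 tag (0.0168%). Gap43 by its vM21 gene was flagged in the same way, with a gap of 1.00 that rests on 2 tags in replicate 1 (0.0125%). Both genes had tags in 1 of 4 replicates, so the gap is 1.00 whatever the number of tags, and nothing is read from it.

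Signal outside the named sites was found at the annotated 3′ end of Nsmf, where 42 tags are listed under Mir7664, and at that of Ncald, where 9 tags are listed under Gm15941.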

How the results depend on the processing

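Calm2 over Calm3 turned from -0.34 to 0.10 without replicate 2 and was as low as -0.94 without replicate 3. Members whose share differed (1) ranged from 1 to 2 with a replicate left out, and became 2 without replicate 2, with multi-replicate sites only, with vM21 names and without Bc1-like sites, but 0 with a minimum of 10 tags. Without replicate 3, and with the total of sites in more than 1 replicate, the called gene was Basp1 and not Calm3. Members whose site usage differed ranged from 0 to 1 with a replicate left out (0 without replicate 3 or 4; without replicate 4 Basp1 had too few tags), and became 0 with vM21 names, a minimum of 50 tags or no A-rich sites (under the last pair Basp1 had too few tags to be tested). With the total of sites in more than 1 replicate, the summed share was 0.816%, the calmodulin share 0.420% and that of the other calcium genes 2.63%, which was 2.35% without Bc1-like sites. The Nsmf share was 0 by name and 0.126% by vM21 gene. Member sites in more than 1 replicate fell to 6 at 2 tags each, and signals within 50 bases upstream alone to 16.7% of sites, as most signals overlap or follow the listed position. The distal to proximal log2 ratio (1.63) ranged from 1.01 to 2.21 with a replicate left out. The genes and sites in the sum changed with the replicate, as Calm2 left it without replicate 2 and Hpca without replicate 4. The Basp1 share was 0.0499% without A-rich sites. No paired analysis was possible because all libraries belong to 1 group. With 4 replicates no ratio can reach p under 0.13, and genes under 20 tags were tested for share and usage only with the minimum of 10.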
